A study of Danio rerio with 30 samples.

Results

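The untreated control group of a zebrafish paraben exposure study is described here, as the baseline transcriptome of whole larvae at 120 hours post fertilization (hpf). The group was chosen by its label, Control, and holds 3 of the 30 RNA-seq libraries of the series. All 30 libraries held total RNA of the whole body of 120 hpf larvae of strain AB (wild type), extracted with RNAzol. The Control larvae carried the label Control as their treatment and no compound is named for them. The other 27 libraries fall into 9 groups of 3, labelled with methylparaben (MtP), ethylparaben (EtP) or propylparaben (PrP) at BMD5, BMD5/10 or BMD5/50. The labels give neither the concentrations behind these dose labels, nor any solvent given to the controls, nor the number of larvae per library. The labels do not say that the 3 libraries of a group came from separate clutches or dishes, so the spread between them may be technical.

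At 120 hpf a zebrafish larva swims freely, sees, and is about to depend on food as its yolk runs out, and most organs are in place and at work. In whole-body RNA each tissue contributes by its mass and by the RNA content of its cells, so the bulk of the larval transcriptome comes from trunk muscle, eye, skin and the general machinery of translation and respiration. The zebrafish lineage went through a whole-genome duplication, and many genes of other vertebrates exist here as an a copy and a b copy on different chromosomes.

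The Control libraries held 12735989, 13335764 and 14621890 reads assigned to genes in replicates 1, 2 and 3, in a series that ran from 9711814 to 24468093. CPM is a gene's reads scaled to a common total of gene reads, so an order of genes by CPM is an order of reads. Levels per length are given in TPM, the unit that the authors deposited. The 3 libraries shared 15149 genes at 1 CPM or more in each, and 13744 at 1 TPM or more in each. At least 1 read was found for 24443 of 31846 gene symbols, and 7403 had none in Control. Protein-coding transcripts took 96.5% ± 0.656 of the reads (SD, n = 3), and transcripts of the mitochondrial chromosome took 5.68%, 5.25% and 6.16% in replicates 1, 2 and 3. A gene with 0 reads in all 3 libraries together could still be present at up to 0.0737 CPM, the level of 3 reads, and all such floors cover counting error only.

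Reads were concentrated in few genes, most of them genes of fast skeletal muscle. The 20 genes with the highest mean CPM took 17.98%, 25.5% and 24.9% of the reads in replicates 1, 2 and 3, and 161 genes held 50% of all Control reads. Of these 20 genes, actc1b had the most reads, with 28938, 37364 and 41972 CPM in replicates 1, 2 and 3. It encodes an alpha actin of striated muscle and lies on chromosome 17 at 117024 to 125091 in the deposited annotation, for which the sources used here name no genome build. Per length, pvalb1 on chromosome 3 (61193890 to 61205711) had the highest mean of all genes, with 27015, 39812 and 41871 TPM, although actc1b was above it in replicate 1 at 27673 TPM. It encodes a parvalbumin, a calcium buffer that lets fast fibres relax quickly. Replicate 1 was the lowest for both genes, while replicates 2 and 3 lay close together for pvalb1. The rest of the 20 held other contractile genes (myhz1.1, myhz1.2, myhz2, mylpfa, mylz3, tpma) and atp2a1, a calcium pump gene of muscle. The rest also held the muscle creatine kinases ckma and ckmb, the second leading parvalbumin pvalb2 and 4 genes of the mitochondrial genome. The others were the translation factor gene eef1a1l1, the keratin gene cyt1, and zgc:158463 and CT027638.1, for which no role is given here. The reads of myhz1.1, myhz1.2, myhz1.3 and myhz2 are uncertain singly, since these myosin heavy chain genes are near-identical copies that the counting could split, and the symbol myhz1.1 joined several gene IDs.

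**Figure D1:**
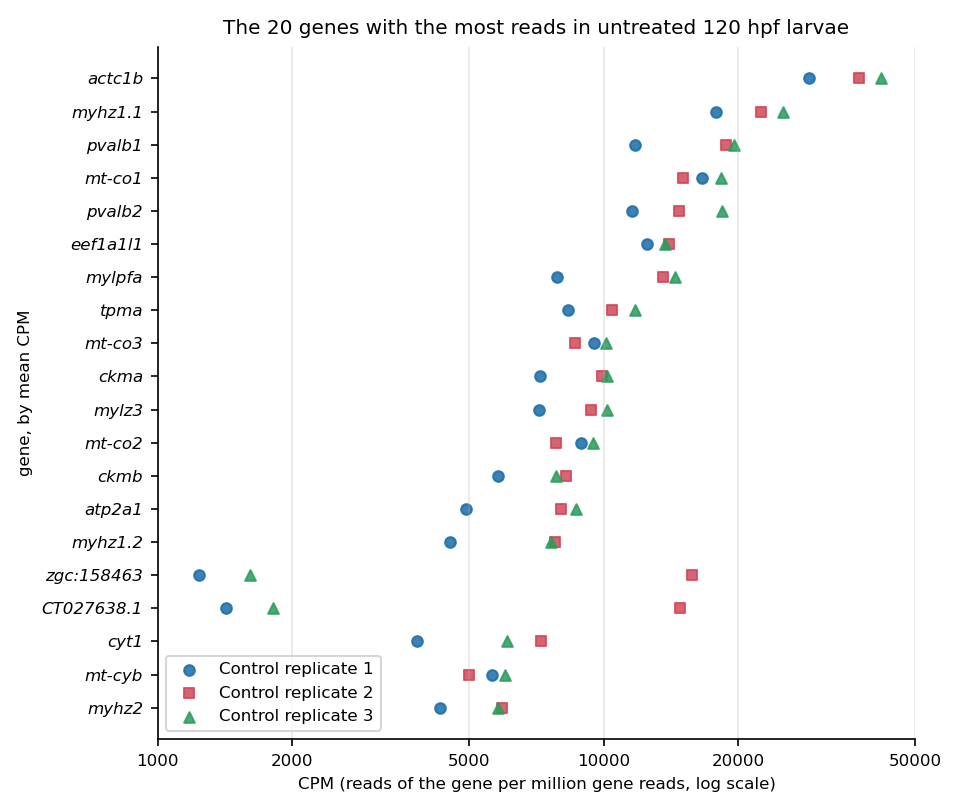
CPM of the 20 genes with the highest mean CPM in Control, on a log axis, with a point for each of the 3 libraries. In most rows the points lie close together, with replicate 1 lowest for the muscle genes (28938 CPM for actc1b against 37364 and 41972), and in the rows of zgc:158463 and CT027638.1 replicate 2 stands far to the right at 15750 and 14851 CPM.

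Skeletal muscle genes together made up 18.5% ± 3.19 of the summed TPM (SD, n = 3). The list of 57 muscle genes took 15.1% of TPM in replicate 1, 19.1% in replicate 2 and 21.4% in replicate 3, so that the lowest library had a smaller share than either of the others. Of the 57 genes, 54 reached 1 TPM in all 3 libraries. The highest after the parvalbumins and actc1b was tpma, a tropomyosin of fast fibres, with 13896, 17701 and 19756 TPM. The fast light chain gene mylpfa averaged 9538 ± 2523 TPM. Its level of 6659 TPM in replicate 1 was below the 10597 and 11359 TPM in replicates 2 and 3. The slow fibre gene smyhc1, the main slow myosin heavy chain of larval zebrafish, averaged 73.4 ± 20.7 TPM, against 3889 ± 522 TPM for the fast gene myhz1.1. Troponin genes (26 by symbol, of which 19 reached 1 TPM) summed to 1.76% of TPM, led by the fast troponin T gene tnnt3b at 6478 ± 941 TPM. The sum over titin and nebulin genes was 0.0555% of TPM.

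Genes of translation and respiration formed the other large share. The ribosomal protein list took 22.3%, 23.4% and 23.1% of TPM in the 3 libraries, the narrowest spread among the 4 largest lists. This evenness holds for shares of TPM. With TMM scaling, which removes a shift common to most genes, 82 of its 86 genes with at least 10 CPM were lower in replicate 1 (median log2 difference -0.51). Of all 8585 genes with at least 10 CPM, 3992 were lower there on that scale (median 0.02). Genes of the large subunit (47) made up 13.2% and genes of the small subunit (36) 10.1%. Every one of these genes reached 1 TPM in all 3 libraries. The 5 list members below 1 TPM were kinase genes that the symbol pattern of the list also took up, such as rps6ka2. The list held 93 genes in all, more than the 47 and 36 of the large and small subunits. Counts over this list, here and below, thus include some genes outside these groups. The leading ribosomal genes were rps29 at 5820 ± 219 TPM, rpl39 at 5627 ± 430 TPM and rps2 at 5454 ± 190 TPM. The 13 protein genes of the mitochondrial genome took 8.99%, 7.51% and 9.10% of TPM. Within that genome the cytochrome oxidase genes led, with mt-co2 at 18246 ± 2079 TPM, and mt-nd6, the gene encoded alone on the light strand in vertebrates, was lowest at 22.3 TPM on average. The values of mt-atp8 (7269 ± 1227 TPM) rest on 46.2, 38.2 and 56.0 CPM and overlap the neighbouring mt-atp6, so they are uncertain. Nuclear genes with symbols beginning in nduf (complex I, 48 genes) summed to 0.517% of TPM. Those beginning in cox and a digit (cytochrome oxidase, 27 genes) summed to 0.518%, and those beginning in atp5 (ATP synthase, 19 genes) to 0.684%. Taken by symbol, these groups can also hold genes of assembly factors, so the sums are not of subunits alone.

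The eye was strongly represented. Lens genes took 8.38%, 6.06% and 7.96% of TPM in replicates 1, 2 and 3, with replicate 2 lowest. The largest part was that of the gamma crystallins, structural proteins that give the fish lens its density, with 5.63% of TPM over 40 genes. The beta crystallins (13 genes) followed at 2.01%, and the alpha crystallins (3 genes) had 0.00571%. The leading genes were crygm2d17 at 6372 ± 1057 TPM, crybb1 at 6359 ± 813 TPM and crygm2d13 at 4302 ± 721 TPM. Members of the crygm2d group are near-identical, so reads may have been split among them. Among the alpha crystallins cryaa averaged 56.8 TPM, while cryaba and cryabb stayed below 1 TPM in every library. Photoreceptor genes summed to 16948, 14175 and 13702 TPM, and 41 of the 43 listed reached 1 TPM in all 3 libraries. The visual pigment gene of rods, rho, had 3009, 3086 and 2756 TPM, 3 values that differed little. With TMM scaling its log2 difference of replicate 1 from the mean of the others was -0.40. The cone phosphodiesterase inhibitor gene pde6ha was less even, with 3017 TPM in replicate 1 against 1321.5 and 1766 TPM in replicates 2 and 3.

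All 9 visual opsin genes were in the table, and their levels fell into a steep order. rho held 41.3% ± 2.0 of the summed opsin TPM. The ultraviolet opsin gene opn1sw1 followed at 1481 ± 89.8 TPM, above the red opsin gene opn1lw2 at 1033 ± 195 TPM and the green opsin gene opn1mw1 at 954 ± 113 TPM. The levels of these last 2 genes overlapped between libraries, since opn1lw2 had 870, 1248 and 979 TPM and opn1mw1 851, 1075 and 936 TPM. The blue opsin gene opn1sw2 came next at 647 ± 66.1 TPM, below opn1mw1 in each library. Of the tandem copies, opn1mw2 averaged 80.1 ± 5.12 TPM and opn1lw1 14.9 ± 7.09 TPM. The green opsin genes opn1mw3 and opn1mw4 were below 1 TPM in each library, and opn1mw4 had 0 reads. The opsin genes of the red and green arrays are alike in sequence, which makes their single values uncertain.

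Neuronal genes were all detected but at modest levels. Each of the 30 genes of the neuron list reached 1 TPM in all 3 libraries, and the list summed to 3497, 2400 and 2163 TPM in replicates 1, 2 and 3. In whole-body RNA fewer cells of a type and less RNA per cell cannot be told apart, here and in all sums below. The highest were sncb, which encodes beta-synuclein, at 468 ± 105 TPM, and the synaptic fusion genes snap25b at 313 ± 65.7 TPM and snap25a at 221 ± 58.6 TPM. The pan-neuronal RNA-binding protein gene elavl3 had 31.5, 20.4 and 14.7 TPM. Its highest value was in replicate 1 and its lowest in replicate 3. Transmitter genes covered inhibitory and excitatory neurons. The NMDA receptor gene grin1b averaged 109 ± 27.8 TPM, the GABA synthesis gene gad1b 98.7 ± 41.5 TPM and the GABA transporter gene slc6a1b 79.9 ± 29.6 TPM. The acetylcholinesterase gene ache had 42.9, 30.4 and 34.9 TPM. Genes of the monoamine systems were low: th, for the first step of catecholamine synthesis, averaged 2.81 ± 1.84 TPM, and the vesicular transporter gene slc18a2 and the serotonin transporter gene slc6a4a were below 1 TPM in every library.

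Glial genes summed to 2483, 1484 and 1617 TPM, and 20 of 22 reached 1 TPM in all 3 libraries. fabp7a, a radial glia fatty acid binding protein gene, led with 1154 TPM in replicate 1 and 590.3 and 667 TPM in replicates 2 and 3. The glutamine synthetase gene glula averaged 313 ± 99.7 TPM. The intermediate filament gene gfap had 32.5, 37.2 and 52.2 TPM and was highest in replicate 3, unlike most genes of its list. Myelin genes were present, with mbpb at 79.6 ± 13.4 TPM, mbpa at 41.8 ± 5.54 TPM and plp1b at 22.2 ± 5.15 TPM. Hypothalamic peptide genes were measurable too, led by npy at 23.1 ± 9.27 TPM, crhb at 18.5 ± 7.42 TPM and cart2 at 12.3 ± 5.31 TPM. The 6 pineal genes all reached 1 TPM, led by crx (89.7 ± 10.8 TPM), which photoreceptors of the retina also use.

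Liver and gut genes were present at lower levels than those of muscle or eye. The liver and plasma protein list summed to 2096, 1469 and 1757 TPM, and 28 of 39 members reached 1 TPM in all 3 libraries. Its leading members were the retinol carrier gene rbp4 at 446 ± 48.6 TPM, the lipoprotein gene apoa1b at 339 ± 58.6 TPM and fabp10a, the liver fatty acid binding protein gene of fish, at 334 ± 51.7 TPM. Intestinal genes summed to 903, 1041 and 1322 TPM. fabp6, an ileal bile acid binding protein gene, made up most of this with 616, 637 and 890.4 TPM. Next were the retinol binding protein gene rbp2a at 77.7 ± 5.23 TPM and fabp1b.1 at 73.9 ± 27.0 TPM. Digestive enzyme genes of the exocrine pancreas summed to 108 TPM in replicate 1, far below the 449.7 and 409 TPM in replicates 2 and 3. The trypsin gene prss1 had 24.1 TPM in replicate 1 against 109 and 101 TPM in replicates 2 and 3. The elastase gene cela1.6 and the trypsin-like gene prss59.2 had the same order of libraries, with replicate 1 lowest. Of the islet list, neurod1, scg3 and isl1 led, all of which neurons express as well, and the insulin gene ins averaged 1.83 TPM.

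Skin genes followed those of muscle and lens by mean level. The epidermis list summed to 12587 TPM in replicate 1, below the 19378 and 17808 TPM in replicates 2 and 3. Its mean of 16591 ± 3555 TPM was within 1 SD of the 14942 ± 1754 TPM of the photoreceptor list, which was the higher of these lists in replicate 1. It was led by the keratin genes cyt1 at 4320 ± 1192 TPM, krt91 at 3359 ± 537 TPM and cyt1l at 2308 ± 831 TPM. Ionocyte genes, for cells that take up salts through the skin, summed to 237, 155 and 145 TPM. The proton pump gene atp6v1aa, which other cells also use, was highest at 80.4 ± 26.9 TPM, so the sum is not of ionocytes alone. Connective tissue genes reached 1 TPM in 20 of 21 cases, with the matrix gene sparc at 355 ± 30.7 TPM and col1a1a at 167 ± 23.3 TPM. Cartilage collagens were led by col2a1a, with 97.9 TPM in replicate 1 and 152 TPM in both of the others. Genes of bone formation on the same list (sp7, runx2a, runx2b, spp1, col10a1a) were below 1 TPM in each library. Pigment genes summed to 233, 271 and 254 TPM. These sums were close, but with TMM scaling, which removes a shift common to most genes, 6 of the 7 pigment genes with at least 10 CPM were lower in replicate 1 (median log2 difference -0.67). Of all 8585 genes with at least 10 CPM, 3992 were lower there on that scale. The list was led by the melanin synthesis genes tyrp1b at 80.2 ± 7.03 TPM and dct at 43.1 ± 4.0 TPM and the melanosome gene pmela at 58.1 ± 8.79 TPM.

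Heart, vessel and myeloid genes gave small shares, and red cell genes a larger one. Red cell genes summed to 1111, 1687 and 3283 TPM in replicates 1, 2 and 3, or 0.203% of TPM on average. Of the 21 red cell genes, 12 reached 1 TPM in all 3 libraries. The heart list summed to 264, 390.4 and 356 TPM, but actc1a, an actin gene that skeletal muscle also uses, accounted for 249, 366 and 333 of these. Of the 19 heart genes, 7 reached 1 TPM in all 3 libraries. The ventricular and atrial genes that define the organ were low. myl7, the cardiac light chain gene, averaged 2.77 ± 0.852 TPM, and nppa, nppb, myh6, tbx5a and bmp10 were below 1 TPM in every library. Vessel genes summed to 44.7, 38.2 and 37.3 TPM, led by cldn5b at 10.0 ± 2.31 TPM, and 10 of 17 reached 1 TPM in all 3 libraries. Myeloid genes summed to 356, 253 and 270.0 TPM, mostly through apoeb (198 ± 50.5 TPM), a lipoprotein gene of macrophages and other cells, and grn1 (44.4 ± 3.06 TPM). Of the 15 myeloid genes, 8 reached 1 TPM in all 3 libraries. The neutrophil gene mpx and the macrophage genes mpeg1.1, marco and csf1ra were below 1 TPM in each library.

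Several groups were close to or at the detection limit. None of the 11 pituitary hormone and factor genes in the table reached 1 TPM in all 3 libraries (0 of 11), and the thyrotropin gene tshba had 2, 1 and 4 reads. Lymphoid and thymus genes gave 0 of 13, with the recombinase genes rag1 and rag2 at 0.237 and 0.280 TPM on average, and yolk and germ line genes gave 0 of 24. The germ cell gene ddx4 averaged 0.237 TPM. The yolk precursor gene vtg1 had 0, 1 and 0 reads, and vtg5 and vtg6 had 0 reads in all 3 libraries. Of the hatching gland list only klf17 passed 1 TPM, a gene that is not limited to that gland, and the hatching enzyme gene he1.3 had 0 reads. The sex steroid receptor genes esr1, esr2a, esr2b, ar and pgr were each below 1 TPM in every library, with esr2b highest at 0.653 ± 0.195 TPM. The gonadal aromatase gene cyp19a1a had 0 reads, and the brain aromatase gene cyp19a1b had 4, 3 and 1. Other nuclear receptor genes were higher, with the glucocorticoid receptor gene nr3c1 at 10.8 ± 3.13 TPM, ppardb at 9.73 ± 1.61 TPM and the thyroid hormone receptor gene thrb at 7.01 ± 0.91 TPM.

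**Figure D2:**
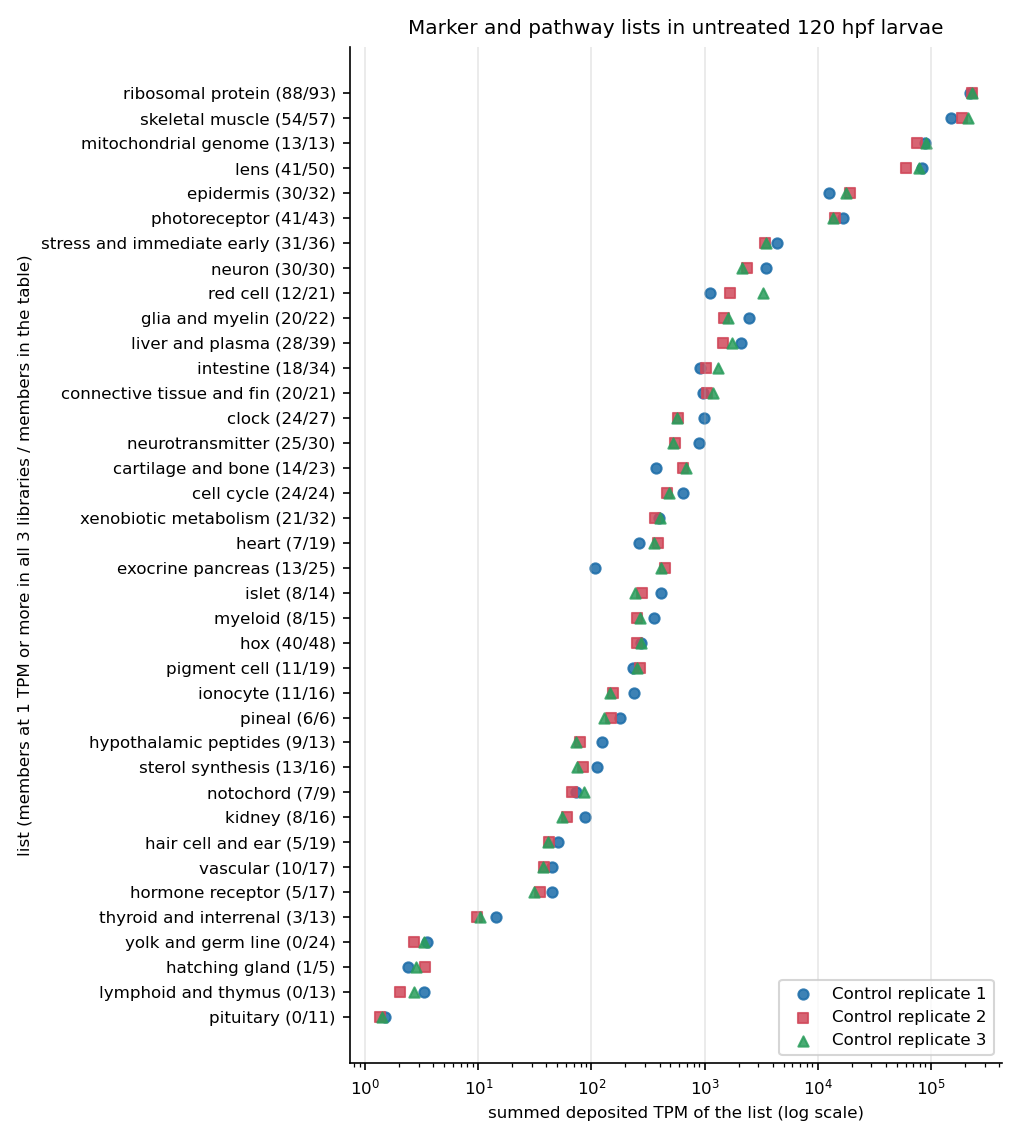
Summed deposited TPM of each of 38 gene lists in the 3 Control libraries, on a log axis, with the number of members at 1 TPM or more in all 3 libraries over the number in the table. Ribosomal protein and skeletal muscle genes lie at the top, near 22.9% and 18.5% of all TPM, and the pituitary, lymphoid, hatching gland and yolk lists lie at the bottom with 0 to 1 members above the limit.

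Genes of xenobiotic handling, which bear on a study of added chemicals, had a low to moderate baseline. The glutathione transferase genes gstp1 and gsta.1 led with 171 ± 12.6 and 71.8 ± 11.3 TPM, ahead of the cytochrome P450 gene cyp3a65 at 32.2 ± 6.34 TPM. Of the aryl hydrocarbon receptor genes, ahr2 had 2.76, 2.22 and 2.41 TPM and ahr1b 1.78, 1.39 and 0.75 TPM, while ahr1a was below 0.1 TPM. Their common target cyp1a had 33, 42 and 57 reads, which is 1.16, 1.3 and 1.61 TPM. Within the cyp1 family cyp1d1 was higher, with 6.16, 5.45 and 4.49 TPM, and took 59.4% ± 7.73 of the family's TPM. The carboxylesterase gene ces2a, of an enzyme class that splits esters, averaged 18.04 ± 2.29 TPM.

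Developmental and cell cycle genes were still widely expressed. All 24 cell cycle genes reached 1 TPM in all 3 libraries, led by pcna, the clamp of the replication fork, at 136 ± 24.3 TPM. Of 48 hox genes, which set position along the body axis, 40 reached 1 TPM in all 3 libraries. The highest were hoxa4a at 25.5 ± 1.48 TPM, hoxc3a at 20.9 ± 2.44 TPM and hoxd3a at 19.9 ± 1.53 TPM. Genes of groups 1 to 4, which act in the hindbrain and anterior trunk, summed to 117 ± 8.97 TPM over 13 genes, those of groups 5 to 9 to 94.0 ± 4.15 TPM over 17 genes, and those of groups 10 to 13 to 56.9 ± 8.86 TPM over 18 genes. The hoxba cluster had the highest sum of the 7 clusters, at 76.7 ± 6.51 TPM, and the hoxcb cluster the lowest, at 8.93 ± 2.08 TPM. Clock genes summed to 995 TPM in replicate 1 and to 583 and 575 TPM in replicates 2 and 3. The labels give no time of day for the sampling. cry3a, a cryptochrome gene, led at 147 ± 39.3 TPM, and the light-responsive genes per1b and per2 were at 7.67 and 34.4 TPM on average.

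Within gene families the larva used few members heavily. Embryonic globins made up almost all globin signal: hbae1.3 held 53.8% ± 2.21 and hbae3 41.6% ± 2.46 of alpha globin TPM, and hbbe1.1 held 38.9% ± 3.92 of beta globin TPM. The adult genes hbaa1, hbaa2 and hbba2 were below 1 TPM in each library and hbba1 had 0 reads. Globin genes are near-identical in groups, which makes single members uncertain. Among actins actc1b held 83.9% ± 1.78 of the family's TPM, while the skeletal gene acta1b held 5.14% ± 0.312. The cytoplasmic actins actb1 and actb2 averaged 924 ± 80.6 and 2565 ± 257 TPM. Of the parvalbumins pvalb1 held 53.6% ± 3.01 and pvalb2 44.2% ± 2.82 of the family's TPM, and the next was pvalb4 at 943 ± 134 TPM. The hair cell parvalbumin gene pvalb9 averaged 18.8 ± 2.21 TPM.

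**Figure D3:**
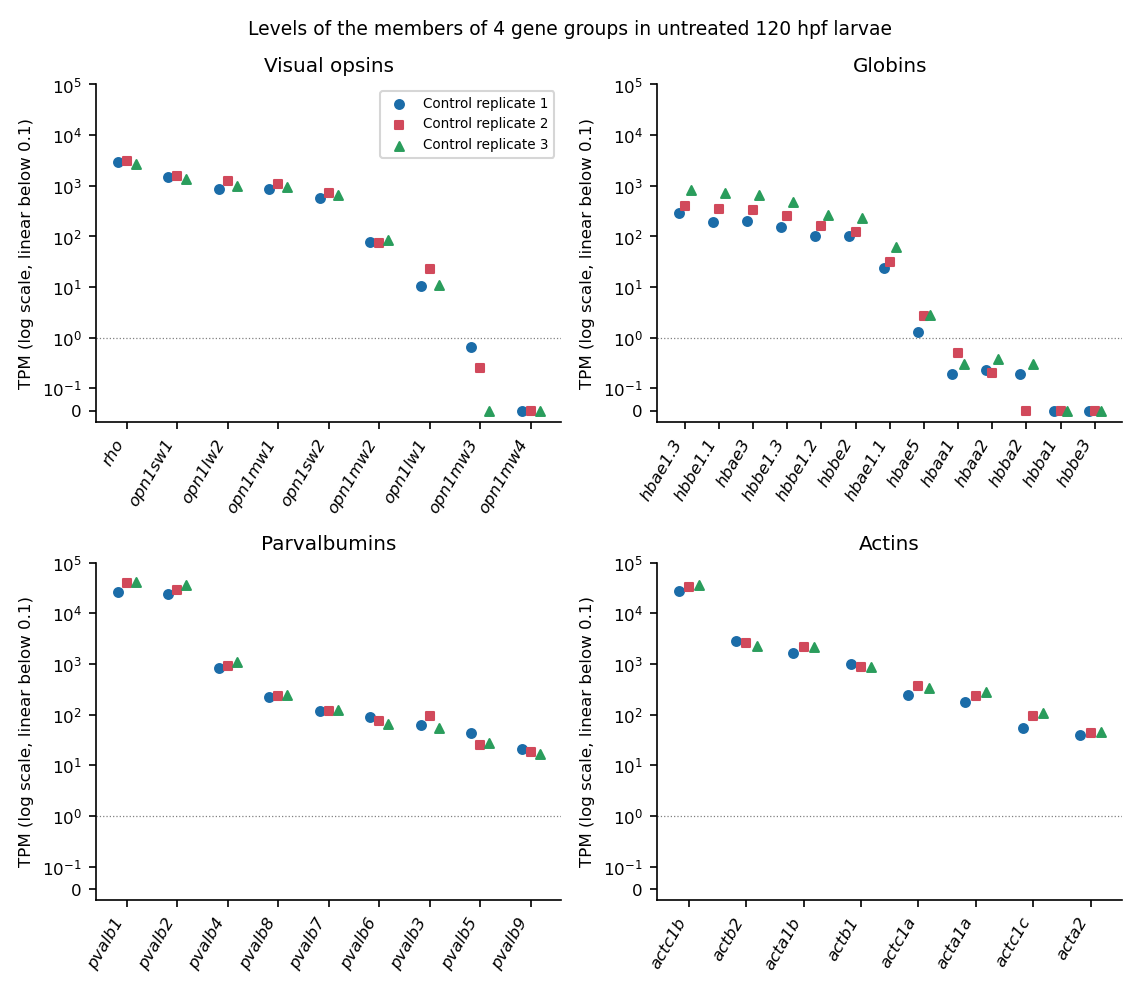
TPM of each visual opsin, globin, parvalbumin and actin gene in the 3 Control libraries, on an axis that is logarithmic above 0.1 TPM and linear below, with a dotted line at 1 TPM. Within each family the leading gene lies far above the last, and for the globins replicate 3 lies above replicates 1 and 2 in every gene from hbae1.3 (829 TPM in replicate 3) down to hbae1.1.

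Housekeeping families had the same shape. Of the elongation factor 1 alpha genes eef1a1l1 held 99.0% ± 0.310 of TPM, with 8618, 8911 and 8739 TPM. This was a narrow spread between libraries on the TPM scale, and the gene is often used as a standard. The constitutive chaperone gene hspa8 averaged 1887 ± 24.8 TPM, and it held 91.3% ± 2.95 of the 70 kDa family's TPM. Its heat-inducible relative hsp70.3 had 18.6, 4.61 and 14.8 TPM, a range of over 2 times, and hsp70.3 shares near-identical sequence with hsp70.1 and hsp70.2. Other families were shared more evenly. Enolase TPM was split between eno3 (48.6%) and eno1a (45.5%). The muscle creatine kinases ckma and ckmb were close, at 48.6% ± 2.45 and 38.9% ± 2.04 of family TPM, with ckma higher in each library.

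Pairs of genes that differ in name only by a final a or b were examined as a set. The table held 2872 such pairs, and 2493 had a summed mean level of at least 1 TPM. The naming rule takes up duplicates of the genome duplication but also pairs of other kinds, such as rnaseh2a with rnaseh2b, which are different subunits of an enzyme. The median difference between members was 1.93 on the log2 scale of TPM + 0.1, which is 3.82-fold. The middle 50% of pairs ran from 0.898 to 3.55. The median SD of a pair's log2 ratio over the 3 libraries was 0.307, well below the median ratio, and in 2280 pairs (91.5%) the same member was higher in all 3 libraries. Over 10-fold differences were found in 718 pairs (28.8%) and differences under 2-fold in 697 pairs (28.0%). The a member was higher in 1301 pairs and the b member in 1192. In 69 pairs the a member had at least 10 TPM and the b member under 1 TPM in all 3 libraries, and in 67 pairs the reverse held. These values depend on the pseudocount, because low members count at 0.1 TPM, and with 1 TPM in its place the median fell to 1.37.

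Of the 10 pairs with the largest ratios, all but mybpha with mybphb had a member below 1 TPM in all 3 libraries. cycsb, a gene for cytochrome c, averaged 281 ± 80.2 TPM, and cycsa was at 0 TPM in all 3 libraries. ctsla, a cathepsin L gene, averaged 181 ± 23.8 TPM, while ctslb, a gene known from the hatching gland, was at 0 TPM. The GABA synthesis gene gad1b averaged 98.7 ± 41.5 TPM against 0.0433 ± 0.0451 TPM for gad1a. The troponin C gene tnnc1b averaged 122.9 ± 44.8 TPM against 0.137 ± 0.0814 TPM for tnnc1a, and both lie on chromosome 23. The muscle gene mybphb averaged 1130 ± 264 TPM against 2.76 ± 0.255 TPM for mybpha. The 10 largest also included sumo2b over sumo2a, clta over cltb, diras1a over diras1b and gng13b over gng13a. At the other end, the casein kinase genes csnk2a2a and csnk2a2b had 21.6 ± 5.52 and 21.9 ± 7.0 TPM, and the coatomer genes arcn1a and arcn1b 15.04 ± 4.29 and 15.05 ± 3.94 TPM. The pairs arrdc3a with arrdc3b and rnaseh2a with rnaseh2b were as close. socs3a and socs3b also had a mean log2 ratio near 0, but with an SD of 1.52, since socs3a varied between libraries.

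**Figure D4:**
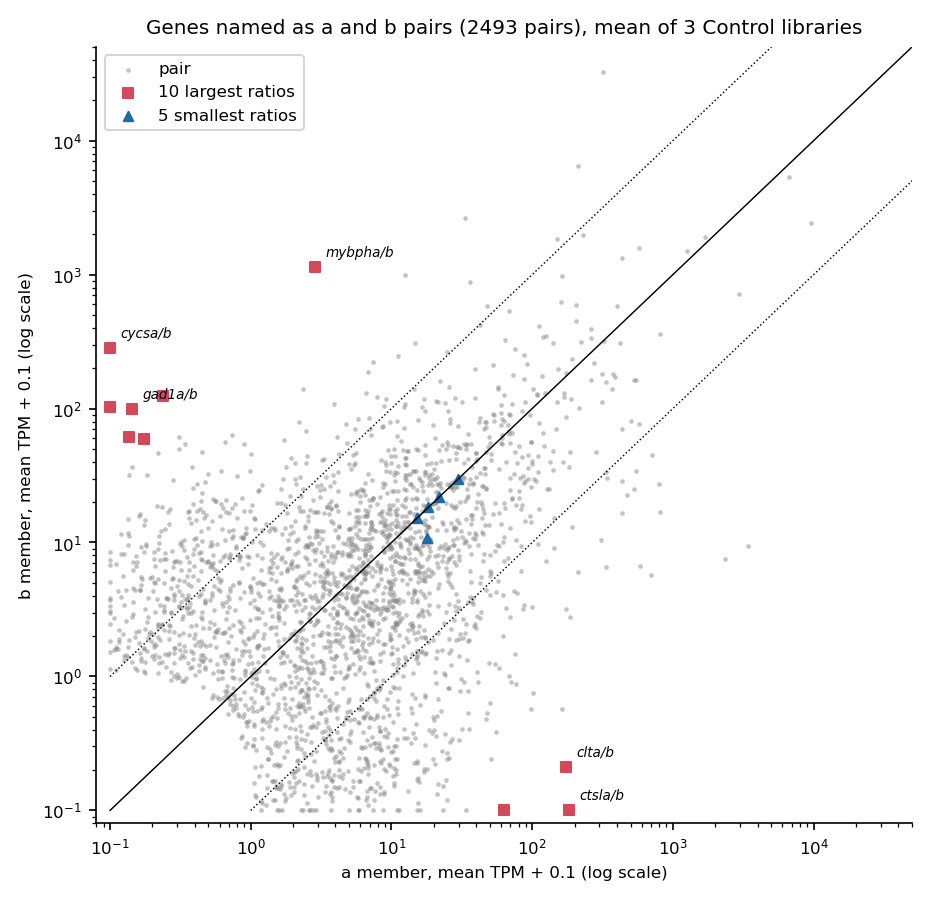
Mean TPM + 0.1 of the b member against that of the a member for 2493 pairs, both axes logarithmic, with a solid line at equal levels and dotted lines at 10-fold differences. The 10 pairs with the largest ratios, such as cycsa and cycsb, lie at the edges, the 5 smallest lie on the line or near it, and 718 pairs lie outside the dotted lines when the ratio is averaged over libraries.

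The spread between the 3 libraries was larger than counting error. Over 8585 genes with a mean of at least 10 CPM the median coefficient of variation (SD over mean) was 0.176, against 0.0510 from Poisson counting alone. It was 0.171 for genes of 10 to 30 CPM, 0.183 for 30 to 100 CPM, 0.181 for 100 to 1000 CPM and 0.107 for genes of 1000 CPM or more. The highest library exceeded 2 times the lowest for 336 genes (3.91%). In the 9 treated groups the median coefficient ran from 0.116 to 0.222 and the number of such genes from 240 to 1213, so Control lay within their range. Part of the Control spread was a shift common to most genes. On the CPM scale the median gene was 0.35 higher on the log2 scale in replicate 1 than in the mean of replicates 2 and 3, and 7320 of 8585 genes were higher there, while the abundant muscle genes were lower. With TMM scaling that median was 0.02 and the median coefficient of variation was 0.103, while 318 genes were still over 2-fold apart. Without replicate 1 the coefficient on the CPM scale was 0.0662, with 37 genes over 2-fold apart, and with TMM scaling it was 0.0643, with 41 such genes.

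Replicate 1 was marked by high immediate early genes, the transcription factor genes that neural activity or stress switches on within minutes. Genes over 2-fold higher in replicate 1 than in the mean of the others numbered 121 (1.41% of 8585), or 36 (0.419%) with TMM scaling. fosab, a Fos gene, had 239 CPM in replicate 1 against 14.4 and 14.5 CPM in replicates 2 and 3. The activity-dependent gene npas4a had 251 CPM against 28.6 and 26.6 CPM, and egr4 had 124 CPM against 14.7 and 16.3 CPM. Of 17 immediate early genes 11 had at least 10 CPM, all 11 were highest in replicate 1, and 8 exceeded 2-fold, or 7 with TMM scaling. Their median log2 difference was 1.87 on the CPM scale and 1.53 with TMM scaling. The limit of 10 CPM was on the mean of all 3 libraries, so a gene could pass it through replicate 1 alone. The gene nfil3-6, from outside the 17, did so with 38.55 CPM against 9.148 and 8.07 CPM. Counts of higher or lower genes, here and for the other libraries, thus partly follow from the limit. The cytokine signalling inhibitor gene socs3a (70.0 CPM against 7.799 and 10.4 CPM) and the genes ier2a, junbb, btg2 and nfil3-6 were also among the 10 most raised in this library.

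Other groups were low in replicate 1. Genes over 2-fold lower there numbered 53 (0.617%), or 142 (1.65%) with TMM scaling, so that the scaling turned the balance of higher and lower genes. The 8 pancreatic enzyme genes with at least 10 CPM were all lowest in replicate 1, with a median log2 difference of -2.19 on the CPM scale and -2.52 with TMM scaling. prss1 had 14.997 CPM against 73.5 and 67.9 CPM, and ctrb1, a chymotrypsinogen gene, 5.58 CPM against 28.9 and 26.1 CPM. Genes such as ctrb1 passed the limit of 10 CPM only through replicates 2 and 3, so the count partly follows from the limit. Without a limit the list of 25 genes summed to 75.7, 324 and 294 CPM in replicates 1, 2 and 3. Skeletal muscle genes were lower in 48 of 49 cases (median -0.48 on the CPM scale, -0.81 with TMM scaling), epidermal genes in 26 of 29 (-0.53 and -0.86), and cartilage and bone genes in 12 of 13 (-0.96 and -1.29). Neuronal genes were higher in 27 of 27 cases on the CPM scale (median 0.53, against 0.35 over all 8585 genes) and in 24 of 27 with TMM scaling (median 0.20, against 0.02). Of all genes, 7320 of 8585 were higher by CPM and 4593 with TMM scaling. Lens genes changed direction with the scaling: 29 of 39 were higher in replicate 1 by CPM and 0 of 39 with TMM. What these differences rest on was not tested.

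Replicate 2 was marked by 7 genes that were over 4-fold higher there than in the mean of the others. In all, 10 genes (0.116%) were over 2-fold higher in this library and 52 (0.606%) lower, or 13 and 34 with TMM scaling. The largest in reads were zgc:158463 on chromosome 5 (824709 to 825920), with 15750 CPM against 1241 CPM in replicate 1 and 1614 CPM in replicate 3, and the long noncoding RNA gene CT027638.1 on chromosome 20 (55169000 to 55169889), with 14851 CPM against 1420 and 1813 CPM. The others were AL935186.10, BX649540.1, FO704772.2, wu:fi09b08 and si:ch73-7i4.2. Together the 7 took 3.19% of the reads of replicate 2, against 0.274% in replicate 1 and 0.356% in replicate 3. In the 27 treated libraries they took 0.319% to 16.2%, with a median of 0.552%, and only PrP BMD5 replicate 3 exceeded Control replicate 2. The TPM of wu:fi09b08 (13091 in replicate 2 from 96.9 CPM) rests on a very short annotated transcript and is uncertain. Reads of some RNA classes were highest in the same library. Transcripts annotated as snRNA took 0.00218% of its reads, against 5.5e-05% in replicate 1 and 0.000185% in replicate 3. Those annotated as misc_RNA took 0.0185%, against 0.00134% and 0.00156%. The misc_RNA class holds BX649540.1 from the 7 genes, at 157 CPM in replicate 2 against 9.82 and 11.1 CPM in replicates 1 and 3. That gene made up most of the class in each library, so the rise of the class is not a separate observation. Transcripts annotated as rRNA took 0.000697% of the reads of replicate 2, against 0% in replicate 1 and 1.37e-05% in replicate 3. Both the snRNA and the rRNA share were far below the 3.19% of the 7 genes. A link between these classes and the 7 genes was not tested. The other 3 genes over 2-fold higher were prss59.1, opn1lw1 and nupr1b.

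Replicate 3 had the highest levels of red cell genes. Genes over 2-fold higher in it numbered 12 (0.14%), and 43 (0.501%) were over 2-fold lower, or 22 and 27 with TMM scaling. hbbe1.1 had 275 CPM in replicate 3 against 67.5 CPM in replicate 1 and 134 CPM in replicate 2. Of the 13 globin genes 8 had at least 30 reads, and all 8 were highest in replicate 3 and lowest in replicate 1. The red cell anion exchanger gene slc4a1a had 18.9 CPM against 5.89 and 10.7 CPM. Summed globin levels were 372, 627 and 1218 CPM in replicates 1, 2 and 3. Treated libraries ran from 311 to 878 CPM at number 1, from 679 to 1808 CPM at number 2 and from 920 to 2620 CPM at number 3. Control replicates 1 and 3 thus lay within the range of their numbers, and Control replicate 2 lay below it. Other lists were higher in replicate 3 too. Its lens genes were higher in 39 of 39 cases on both scales (median log2 difference 0.26 by CPM and 0.47 with TMM scaling), and so were 12 of 12 genes of the mitochondrial genome (0.18 and 0.39). Skeletal muscle genes were higher in 45 of 49 cases by CPM (0.36) and 46 of 49 with TMM scaling (0.53), and connective tissue genes in 16 and 20 of 20 (0.27 and 0.47). Of all 8585 genes, 1606 were higher in replicate 3 by CPM (median -0.229) and 4146 with TMM scaling (median -0.0096). Among the 10 most raised genes in replicate 3 outside the red cell list were the collagen chaperone gene serpinh1b (172 CPM against 95.1 and 58.9 CPM) and the lens galectin gene grifin (22.7 CPM against 10.9 and 9.75 CPM).

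The Control group was set against the mean of the 9 treated groups in a fit of all 30 libraries. Of 18543 genes tested, 0 passed an adjusted p of 0.05 in edgeR's quasi-likelihood test with Benjamini-Hochberg adjustment (0% called), and DESeq2 also called 0. At an unadjusted p under 0.05 edgeR counted 425 genes (2.29%), 184 higher (0.992%) and 241 lower (1.3%) in Control, and DESeq2 counted 406. With the replicate number as a block edgeR again called 0, and 1139 genes (6.14%) had an unadjusted p under 0.05, 603 higher (3.25%) and 536 lower (2.89%) in Control. The 95% interval of the median gene reached 0.39 log2 units to each side, and 79.2% of genes had intervals within 1 log2 unit of 0, so a difference of 2-fold was outside the interval for most genes but not for the most variable ones. For prss1 the log2 difference, Control minus treated, was -1.47 with an interval from -3.83 to 0.89. For the immediate early gene fosab it was 1.54, with an interval from 0.07 to 3.01 and an adjusted p of 0.9998 (edgeR). With the replicate number as a block the fosab difference was 1.08. It was -0.78 without Control replicate 1, in a fit that kept the treated libraries numbered 1. The 14.4 and 14.5 CPM of Control replicates 2 and 3 lay below 24.4 CPM, the median over treated libraries of all numbers. The direction thus held with the block and turned when Control replicate 1 was left out.

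Photoreceptor genes leaned lower in Control, without a call. Of 42 tested, 38 had a negative difference, with a median of -0.26 against 0.00 over all genes tested, and 10 had an unadjusted p under 0.05 in that direction, where 1.3% of all genes did. With the block 12 did (28.6%), where 2.89% of all genes did. Without Control replicate 1 the median was -0.175, with 38 of 42 still negative. Among the 10 were the cone opsin genes opn1sw2 (mean 817 CPM in Control and 1074 CPM in treated larvae, with TMM scaling) and opn1mw1 (1365 and 1767 CPM). The difference was -0.39 for opn1sw2 and -0.37 for opn1mw1, and -0.19 and -0.16 without Control replicate 1. Without Control replicate 2 it was -0.524 and -0.522. The photoreceptor list was also summed by CPM without TMM scaling, a scale that shifts with the share of reads other genes take. In these sums Control replicates 1, 2 and 3 lay below 9, 8 and 9 of the 9 treated libraries of their number. Members of a list vary together, so the counts of this and the following lists are descriptions and not tests.

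Genes of several inner organs had negative differences as well. These were 23 of 23 exocrine pancreas genes (median -1.52), 38 of 39 liver and plasma genes (median -1.12), 26 of 32 intestinal genes (median -0.77), 12 of 13 heart genes (median -0.59), 15 of 15 red cell genes (median -0.39) and 14 of 16 vessel genes (median -0.20), of which 0 had an unadjusted p under 0.05. Pigment genes were negative in 15 of 17 cases (median -0.205), with 2 (11.8%) at an unadjusted p under 0.05, where 1.3% of all genes were. With the block 2.89% of all genes had an unadjusted p under 0.05 in this direction. The shares were above that for 5 exocrine pancreas genes (21.7%), 6 intestinal genes (18.8%), 4 heart genes (30.8%), 3 pigment genes (17.6%) and 2 red cell genes (13.3%). They were nearer to it for 2 liver genes (5.13%) and 1 vessel gene (6.25%), and 2 intestinal genes had one in the other direction. With the block the median was -0.59 for the liver list, -1.48 for exocrine pancreas and -0.57 for intestine. It was -0.53 for heart, -0.41 for red cells and -0.175 for vessels. In summed CPM, Control replicate 1 lay below 2 (intestine), 3 (heart), 8 (red cell) and 7 (vessel) of the 9 treated libraries numbered 1. That number was 6 for exocrine pancreas and 0 for liver and plasma, whose sum in Control replicate 1 was above all 9. Leaving out Control replicate 1 changed some medians, but such a fit kept the treated libraries numbered 1. Without Control replicate 1 the median was -0.50 for the intestinal list, -0.34 for the heart list and -0.04 for the vessel list. It was -0.08 for the red cell list, where 5 of 15 genes were then positive. The exocrine pancreas median was then -1.08, with 23 of 23 genes still negative. The liver and plasma median was -1.04, with 38 of 39 still negative. Without Control replicate 3 the red cell median was -1.03.

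Genes of the ribosomal protein list, which also holds some other genes, were positive in 86 of 92 cases (median 0.15). Epidermal genes were positive in 29 of 32 (median 0.23). Each list had 1 gene at an unadjusted p under 0.05 (1.09% and 3.12%), where 0.992% of all genes were. With the block these were 35 (38.0%) and 11 (34.4%), where 3.25% of all genes were. Skeletal muscle genes were positive in 46 of 57 cases (median 0.14), with 0 at an unadjusted p under 0.05, and with the block 5 had one (8.77%) and 2 had one in the other direction. With the block 48 of 57 muscle genes (median 0.175) and 29 of 32 epidermal genes (median 0.32) were positive. Without Control replicate 3 but with all treated libraries kept, the muscle direction turned, with 20 of 57 genes positive and a median of -0.07. Epidermal genes were then positive in 18 of 32 cases (median 0.12), and in 19 of 32 without Control replicate 2 (median 0.06). The ribosomal median was 0.31, 0.09 and 0.07 without Control replicates 1, 2 and 3 in turn.

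Neuronal genes were negative in 24 of 30 cases (median -0.07), with 1 (3.33%) at an unadjusted p under 0.05 and 6 (20%) with the block. Of all genes tested, 1.3% had one in this direction, and 2.89% with the block. Their median was -0.14 without Control replicate 1 and -0.02 without replicate 3, where 16 of 30 were negative. Glial and myelin genes were negative in 19 of 22 cases (median -0.15), with 3 (13.6%) at an unadjusted p under 0.05 and 6 (27.3%) with the block. The sentinels elavl3 and gfap differed by 0.16 (interval -0.17 to 0.48) and -0.38 (interval -0.88 to 0.11), and by 0.02 and -0.13 without Control replicate 1. Without Control replicate 3 they moved the other way, to 0.308 and -0.715.

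Sums over gene sets moved with the replicate number in treated larvae as well. The 17 immediate early genes summed to 1366 CPM in Control replicate 1, against 543 to 1044 CPM in the treated libraries numbered 1. They summed to 348.5 CPM in Control replicate 2, against 262 to 333 CPM in the treated libraries numbered 2, and to 349 CPM in Control replicate 3, against 293 to 507 CPM in those numbered 3. The full list of 36 stress and immediate early genes was likewise above all 9 treated libraries at number 1, with 9043 CPM in Control, but its 8060 and 8080 CPM in Control replicates 2 and 3 lay below 9 and 8 of the 9 of the same number. The liver and plasma list was 1485 CPM in Control replicate 1, above all 9 treated libraries numbered 1 (597 to 1003 CPM), but 1152 and 1342 CPM in Control replicates 2 and 3, below all 9 treated libraries of the same number (1520 to 6920 CPM and 1558 to 6820 CPM). The sums of the 3 Control libraries thus lay closer together than the treated libraries of different numbers did. Epidermal genes summed to 16305 and 27142 CPM in Control replicates 1 and 2, above all 9 treated libraries of the same number, and to 24526 CPM in Control replicate 3, below 2 of the 9 numbered 3. These sets were picked after their values were seen, the 17 immediate early genes as a part of 1 list and the others from the 38 lists, and the position of Control among same-numbered libraries was not tested. The labels do not say what the replicate number stands for.

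**Figure D5:**
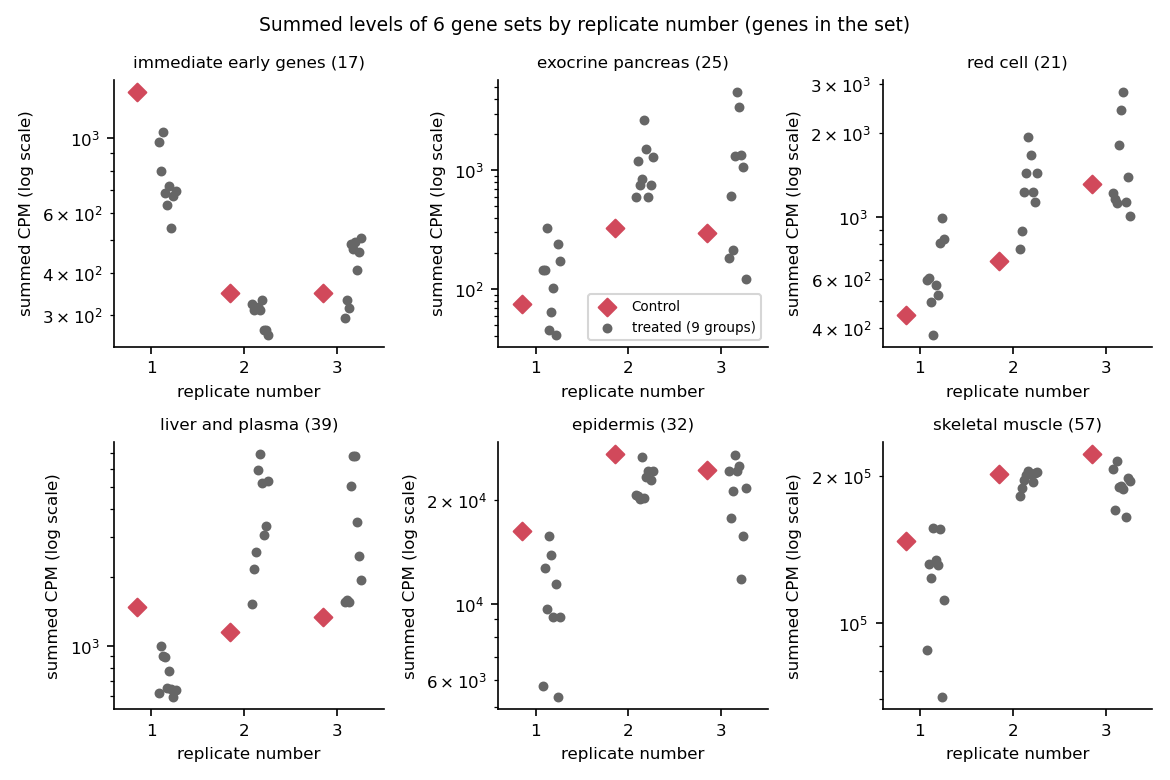
Summed CPM of 6 gene sets in Control (diamonds) and in the 9 treated libraries of the same replicate number (grey points), on log axes, with the number of genes in each title. Immediate early genes are highest in libraries numbered 1 (1366 CPM in Control), and liver and plasma genes of Control lie above the treated libraries at number 1 and below them at numbers 2 and 3.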

How the data were processed

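RNA-seq of 30 libraries was analysed, with the 3 Control libraries as the subject. Per the file headers, the deposited table holds for each of 59876 transcripts a read count, an RPKM and a TPM in every library, in columns matched to samples by title (0 per-sample columns were left unmapped). The read counts were treated as estimated counts that the authors had rounded, since 181 to 227 transcripts per Control library had a deposited count of 0 beside a deposited RPKM above 0. The deposited RPKM served only this check. The deposited TPM was summed without change. The aligner, the counter and the genome build were not given in the sources used here. Counts were summed per symbol (31846 symbols, 533 of which joined several gene IDs), and CPM was taken over each library's total.

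Control was tested against the mean of the 9 treated groups with edgeR 4.0.16 (quasi-likelihood, limma 3.58.1, R 4.3.3), TMM scaling, a filter on low counts (filterByExpr, minimum count 10) and Benjamini-Hochberg adjustment at 0.05, with all 30 libraries and 10 group means. The fit was tested on simulated data. DESeq2 1.42.0 was the alternative tool. All other values are descriptions with SD over 3 libraries, computed with Python 3.11.15 and pandas 2.3.3. Pair ratios used a pseudocount of 0.1 TPM. Replicate numbers come from the titles. Deviations from group means in Control correlated across genes with the mean deviation of the 9 same-numbered treated libraries at 0.474, 0.232 and 0.467. With single treated libraries the correlation ran from -0.138 to 0.531 and was under 0.1 for 4 of 27. The main fit has no block, and counts with the replicate number as a block are given beside it. The labels do not say what the number stands for.

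The members, the 38 gene lists and the 25 families were chosen with earlier results of these data known. Genes were named by rule: the 20 highest in mean CPM, the 3 highest and those below 1 TPM in each list, members of families discussed, the 10 largest and 5 smallest ratios among pairs of at least 20 TPM, the 10 highest and 10 lowest in a library set apart, and 14 sentinels. Genes named outside it, such as ins, and the opsins named in the comparison with treated larvae were chosen after their values were seen. Alternatives covered scaling, filters, thresholds, the unit, the tool, a replicate block and each library left out, and TMM values of the lists within Control were added after seeing the data. A few genes that the rule names are not reported here.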

Additional observations from a re-analysis of the deposited data

How the results depend on the processing

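The count of genes detected in Control stayed within 1.5 times of 15149 under every alternative run (13744 to 16697), and the share of the 20 leading genes stayed within 1 SD. The pair difference of 1.93 (log2) moved to 2.12 on CPM, to 1.365 with a pseudocount of 1 TPM, to 1.735 with no filter on the summed TPM and to 1.708 with a sum of at least 10 TPM, and it was 1.913 to 1.947 with 1 Control library left out. The median coefficient of variation of 0.176 was 0.104 with TMM factors, which also changes the genes that pass 10 CPM, and 0.0662 to 0.204 with 1 library left out, lowest without replicate 1. The number of genes over 2-fold apart was 1814 in place of 336 with a mean of at least 1 CPM. It was 37 to 240 with 1 library left out, 37 without replicate 1 and 210 without replicate 3, as 2 libraries give a smaller range than 3, and 329 without the genes high in Control replicate 2, an alternative chosen after seeing the data.

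Control against the treated groups gave 0 calls under every alternative run: RLE scaling, no filter, DESeq2, the replicate block, libraries numbered 2 and 3 only, and each of the 30 libraries left out. At an unadjusted p under 0.05 the fit with the replicate block counted 1139 genes and the fit of numbers 2 and 3 counted 1544, against 425 without the block. Depth limits genes of few reads most, and 3 libraries limit all of them.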

Other observations

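Some further groups were measured in Control that the comparisons above do not use. Genes of the proteasome, which degrades marked proteins, summed to 2023, 1554 and 1515 TPM in replicates 1, 2 and 3, and 41 of 47 reached 1 TPM in all 3 libraries. Tubulin genes were led by tuba1c at 614 TPM and tubb4b at 464 TPM on average, and their sums over alpha genes (2446, 1807 and 1740 TPM) were highest in replicate 1. Histone genes summed to 3299 ± 586 TPM (SD, n = 3), with the replacement histone gene h3f3b.1 highest at 760 TPM. Sterol synthesis genes were modest, led by fdps at 15.02 ± 2.64 TPM and srebf2 at 14.5 ± 4.2 TPM.

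Notochord genes summed to 72.9, 67.6 and 85.3 TPM, with ccn2a at 31.0 ± 6.78 TPM, and the early notochord gene noto was below 1 TPM in each library. Kidney genes summed to 88.5, 61.3 and 54.8 TPM, led by the bicarbonate transporter gene slc4a4a at 23.7 ± 7.25 TPM. Of the hair cell and ear list 5 of 19 genes reached 1 TPM in all 3 libraries, with the otolith gene stm at 8.94 ± 1.68 TPM and the hair cell synapse gene otofa at 7.96 ± 1.65 TPM. The stress gene hsp70.3 and the inflammation gene il1b were low, with il1b at 14, 8 and 10 reads in replicates 1, 2 and 3.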
